A study of Mus musculus with 2 samples.

Results

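The respiratory chain genes described here are the 13 protein genes of the mitochondrial genome and 98 nuclear genes of complexes I to V. They are 111 of the 28482 genes measured. They were taken by symbol: mt-Nd, mt-Co, mt-Atp and mt-Cytb for the mitochondrial side, and Nduf, Sdha to Sdhd with their assembly factors, Uqcr, Cox4i, Cox5 to Cox8 and Atp5 for the nuclear side. Cox6a2 was left out by the rule, and a gene had to have counts in at least 100 cells. Of the nuclear genes, 78 encode subunits: 37 of complex I, 4 of complex II, 8 of complex III, 12 of complex IV and 17 of complex V. Another 12 are assembly factors (8 for complex I, 4 for complex II), and 8 are pseudogene or noncoding symbols. The cell minimum left out 9 further symbols. Just outside it were Cox7a1 with 83 cells and Cox5b-ps with 80, and just inside it were Atp5l-ps1 with 153 and Ndufab1-ps with 188.

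The cells were CD45+ cells of the spinal cord of C57BL/6 mice on day 15 of experimental autoimmune encephalomyelitis (EAE), an induced autoimmune inflammation of the central nervous system used as a model of multiple sclerosis. All 4 mice had EAE, so no healthy mouse is among the groups. In the untreated group, 2 mice with EAE received no inhibitor; in the inhibitor group, 2 mice with EAE were given an agent that the labels call an inhibitor, with no name, target, dose or schedule. The series title also names wild-type and STAP-1 mice, while these hashtag groups carry the strain C57BL/6 alone; age and sex are not given. Cells of each mouse carried their own antibody hashtag and went through the same BD Rhapsody run, with the TAS-Seq amplification of the captured polyA RNA.

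The respiratory chain moves electrons from NADH (complex I) and succinate (complex II) through complex III and cytochrome c to oxygen at complex IV, and complex V uses the resulting proton gradient to make ATP. Core subunits of complexes I, III, IV and V are encoded in the mitochondrial genome, which is transcribed as long RNAs that are then cut into single messengers, whereas all of complex II and most accessory subunits come from nuclear genes. T cells and microglia rely on oxidative phosphorylation at rest, and neutrophils are known for few mitochondria and for living mainly on glycolysis.

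In the mitochondrial genome the genes lie close together and in part overlap, which bears on how reads can be assigned. In GRCm38 coordinates, mt-Nd1 spans M:2751-3707, mt-Nd2 M:3914-4951, mt-Co1 M:5328-6872 and mt-Co2 M:7013-7696. After these come mt-Atp8 at M:7766-7969, mt-Atp6 at M:7927-8607, mt-Co3 at M:8607-9390 and mt-Nd3 at M:9459-9806. The last stretch holds mt-Nd4l at M:9877-10173, mt-Nd4 at M:10167-11544, mt-Nd5 at M:11742-13565, mt-Nd6 at M:13552-14070 on the other strand, and mt-Cytb at M:14145-15288. The pair mt-Atp8 and mt-Atp6 shares 43 bases, shown here because the start codon of mt-Atp6 (capitals) lies inside mt-Atp8.
mt-Atp8 and mt-Atp6 shared stretch, M:7927-7969, plus strand: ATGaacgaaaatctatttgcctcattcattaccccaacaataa
The genes mt-Nd4l and mt-Nd4 share 7 bases, and mt-Nd5 and mt-Nd6 share 14 on opposite strands. Whether the counting used strand is not given in the sources used here, so counts of mt-Nd6 and of the shared stretches can hold reads of the neighbour.

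Nuclear respiratory chain genes share promoter motifs for the factors NRF1, GABP (an ETS factor) and YY1, which are known regulators of this gene set. RefSeq promoter windows (GRCm38.p6, 250 bases before to 50 after a start) were given for 66 of the 78 nuclear subunit genes, in 71 windows. On either strand, the NRF1 motif (capitals in the NRF1 lines below, where any base may stand at the sixth letter, or at the fifth when the motif lies on the other strand) was in 18 of the 71 windows (25.4%) and in 1512 of 32851 windows of all genes (4.6%). The ETS motif CCGGAAG was in 17 (23.9%) against 2910 (8.86%) of all windows, and the YY1 motif (capitals in the Ndufs6 line) in 5 (7.04%) against 280 (0.852%). At least 1 of the motifs was in 34 windows (47.9%) against 4312 (13.1%). A match is a description of these letters and not a binding site. The stretches below show each motif, most of them in members whose values follow, 5′ to 3′ on the strand of the gene, with the motif in capitals (on the other strand, CCGGAAG reads CTTCCGG).
Sdha, NRF1 motif, chr13:74350319-74350348, minus strand: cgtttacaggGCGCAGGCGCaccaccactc
Ndufa5, NRF1 motif, chr6:24527697-24527726, minus strand: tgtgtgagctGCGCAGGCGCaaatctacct
Atp5h, NRF1 motif, chr11:115420041-115420070, minus strand: gaccccgacgGCGCAGGCGCcgcgcccgcc
Atp5g3, NRF1 motif, chr2:73911295-73911324, minus strand: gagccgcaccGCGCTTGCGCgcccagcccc
Atp5e, ETS motif, chr2:174464187-174464213, minus strand: acggccacagCTTCCGGtagccgctcg
Uqcrh, ETS motif, chr4:116075064-116075090, minus strand: gtatgccgcaCTTCCGGccaggtcgcc
Ndufs3, ETS motif, chr2:90904732-90904758, minus strand: ccgcgtccgcCCGGAAGaagagtcact
Ndufb7, ETS motif, chr8:83566728-83566754, plus strand: cctagatgacCCGGAAGacactgaagg
Ndufs6, YY1 motif, chr13:73328433-73328459, minus strand: ggtcaccggcAAGATGGCGGcggtgct

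Of 21518 cells with a single hashtag, 19252 were used: 4328 and 4578 of untreated mice and 5429 and 4917 of inhibitor mice, with 50278018 to 62074290 counts a mouse and a median of 8288 to 8678 counts a cell. Cells were clustered without the members and without other genes of the mitochondrial genome. Cox6a2, left out by the rule, and nuclear genes such as Cycs could enter. Clusters were named by resemblance to marker genes, so each class name stands for a T cell-like, microglia-like or other such cluster. Named classes held 6947 neutrophils, 6548 T cells, 1788 microglia, 1073 NK cells, 882 B lineage cells, 663 plasmacytoid dendritic cells and 522 dendritic cells, with smaller classes beside them, and 482 cells stayed unnamed. Ptprc, the gene of CD45, was found in each named class in each mouse, from 58.2 to 115 CPM (the counts of a gene per 1000000 counts of the class) in myeloid progenitors to 976 to 1170 in NK cells. Below, the values of the 4 mice follow in the order untreated 1, untreated 2, inhibitor 1 and inhibitor 2.

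The share of a class's counts that came from each genome set the cell types apart. In T cells the 13 mitochondrial genes took 3.49%, 3.62%, 3.41% and 3.29% of counts, and the 78 nuclear subunits 1.74%, 1.67%, 1.64% and 1.79%. The mitochondrial share was thus 1.84 to 2.16 times the nuclear share. NK cells had 3.29 to 3.49% mitochondrial and 1.5 to 1.73% nuclear, and their ranges overlapped those of T cells on both axes.

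B lineage cells stood above T cells for the mitochondrial genes in every mouse, with 4.05%, 4.2%, 4.14% and 4.29%, but not for the nuclear ones, with 1.61%, 1.23%, 1.66% and 1.69%. Dendritic cells showed the opposite, 2.43%, 2.96%, 2.49% and 2.63% mitochondrial beside a nuclear share of 1.65 to 1.75% that overlapped that of T cells. Microglia had a mitochondrial share that overlapped that of T cells, 3.66%, 3.85%, 2.88% and 3.29%, with the lowest nuclear share outside neutrophils, 1.04%, 1.18%, 0.734% and 0.948%, and so a ratio of 3.26 to 3.92. Neutrophils were low on both, with 1.87%, 2.56%, 1.55% and 1.75% mitochondrial and 0.772 to 0.812% nuclear.

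Monocytes and macrophages took 3.13 to 3.24% mitochondrial and 1.93 to 2.03% nuclear, a nuclear share above T cells in every mouse. They were the named part of a cluster split again for its many cells over the mitochondrial limit. Another part, 100 cells also led by Fn1 and Vcan, had a median of 16.76% mitochondrial counts and stayed unnamed. With members in the clustering, 98 cells led by these genes, at 17.15%, took the monocyte or macrophage name. Their part in the shares was not tested. Myeloid progenitors, with 8 to 26 cells a mouse, had the highest nuclear share of the named classes, 2.33 to 2.46%. Plasmacytoid dendritic cells lay with T cells on the mitochondrial side, at 3.47 to 3.84%, and slightly below them on the nuclear side, at 1.5 to 1.58%. The 3943 columns with more than 1 hashtag, which hold cells of different mice, took 4.46% and 1.29%. A share is relative: a lower share of these genes and more RNA of other genes in a cell cannot be told apart in these counts.

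**Figure D1:**
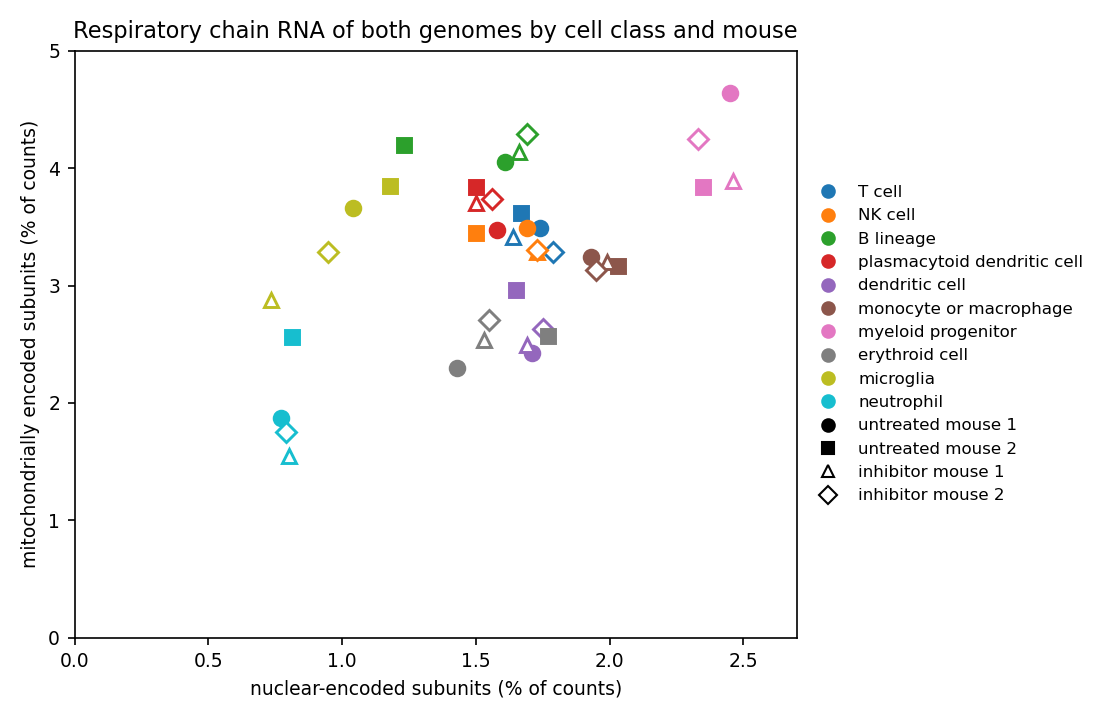
Percent of counts in the 13 mitochondrial genes (vertical axis) against percent of counts in the 78 nuclear subunit genes (horizontal axis). Each point is a class in 1 mouse, with colour for the class and marker shape for the mouse; neutrophils lie low on both axes, and microglia sit left of T cells at a similar height.

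For the gene tests, counts were summed per mouse and class and fitted over all 14580 genes with edgeR's quasi-likelihood test, with the mouse as a block and T cells as the reference; a gene was called at a Benjamini-Hochberg adjusted p under 0.05. Of the 111 members, 109 passed the filter on low counts, all but a pair of pseudogene symbols. CPM values divide by a class's total count, while folds also carry edgeR's TMM scaling, so a fold need not equal the ratio of the CPM values.

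Microglia had lower levels of nearly the whole nuclear chain than T cells. Of 78 nuclear subunits 70 were lower and 0 higher, where 23.6% of all genes tested were lower and 25% higher. Their median log2 fold was −0.875, beside 0.0461 over all genes. Lower genes made up 32 of 37 in complex I, 2 of 4 in complex II, 8 of 8 in complex III, 11 of 12 in complex IV and 17 of 17 in complex V. The median fold ran from −0.379 in complex II to −1.06 in complex V.

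Atp5e, the epsilon subunit of the ATP synthase and the complex V member with the most counts, had 296.6, 355.1, 135.8 and 269.8 CPM in microglia against 591.2, 603.7, 592.5 and 614.3 in T cells. The groups did not overlap, and the log2 fold was −1.31 ± 0.17 (SE; edgeR adjusted p = 7.8e-07). Atp5h, a subunit of the peripheral stalk of the same enzyme, had 210, 266.3, 152.2 and 178.9 CPM in microglia and 443.8 to 476.8 in T cells (−1.30 ± 0.15; edgeR adjusted p = 7.79e-08). All 4 microglia values lay below all T cell values, and inhibitor mouse 1 was lowest for both genes.

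In complex IV, Cox5a had 128.5, 177.8, 76.23 and 95.94 CPM in microglia and 253.3 to 303.2 in T cells, with a fold of −1.31 ± 0.20 (edgeR adjusted p = 7.53e-06). Cox7b, another small subunit of that complex, had 161.1, 163.1, 65.59 and 132.3 CPM against 266.1 to 312.9 (−1.26 ± 0.19; edgeR adjusted p = 4.37e-06). Atp5g3, a gene for the membrane ring of the ATP synthase, fell by 1.27 on the log2 scale. For each of these genes the microglia of every mouse lay below the T cells of every mouse.

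Complex II stood apart from this in part, with 2 of its 4 subunits called. Sdhb, its iron-sulphur subunit and the complex II member with the most counts, fell by 0.44. Assembly factors did not share the fall: of 12, 3 were lower and 1 was higher. Sdhaf1, needed to insert the iron-sulphur clusters of Sdhb, had 18.44, 36.82, 14.96 and 10.45 CPM in microglia against 40.15 to 52.44 in T cells (−1.43; edgeR adjusted p = 0.000238). Ndufaf7, a methyltransferase acting on complex I during its assembly, was higher, with 34.08, 30.71, 39.7 and 35.98 CPM against 15.29 to 23.65 (0.73; edgeR adjusted p = 0.00329).

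On the mitochondrial side, 4 of 13 genes were lower in microglia and 0 higher: mt-Co1 by −0.28, mt-Co2 by −0.33, mt-Atp6 by −0.32 and mt-Atp8 by −0.30. These are the genes of complexes IV and V other than mt-Co3; the 7 mt-Nd genes, of complex I, had a median of 0.114. With library size alone as the scaling, which moved the median of all genes to 0.162, 0 mitochondrial genes were lower and 1 was higher, while 67 nuclear subunits were still lower. The nuclear count was 65 to 70 over all alternatives run. The T cell marker list (12 genes, none at 0) summed to 1781, 3655, 409.6 and 805.2 CPM in these microglia and to 7314 to 7913 in T cells, and the microglia list to 18630, 12750, 26700 and 21030 in microglia. In the order of the mice, microglia with more T cell marker counts had a higher summed nuclear share; the part of T cell RNA in the microglia values was not tested.

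Other mitochondrial genes in the nucleus were described from lists, beside the 23.6% of all genes that were lower in microglia and the 25% that were higher. Of 78 mitochondrial ribosome genes, 41 were lower in microglia and 0 higher, with Mrps16 and Mrpl33, both proteins of that ribosome, at −1.34. Of 17 complex IV assembly genes, 8 were lower and 0 higher, with Cox17, a copper chaperone, at −1.23. In the tricarboxylic acid cycle 6 of 13 were lower and 2 higher, and Cs, citrate synthase, fell by 0.94. Of 24 mitochondrial transcription and RNA genes, 2 were lower and 3 higher, under the share of all genes in both directions. Both mitochondrial ribosomal RNAs, mt-Rnr1 and mt-Rnr2, were lower.

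**Figure D2:**
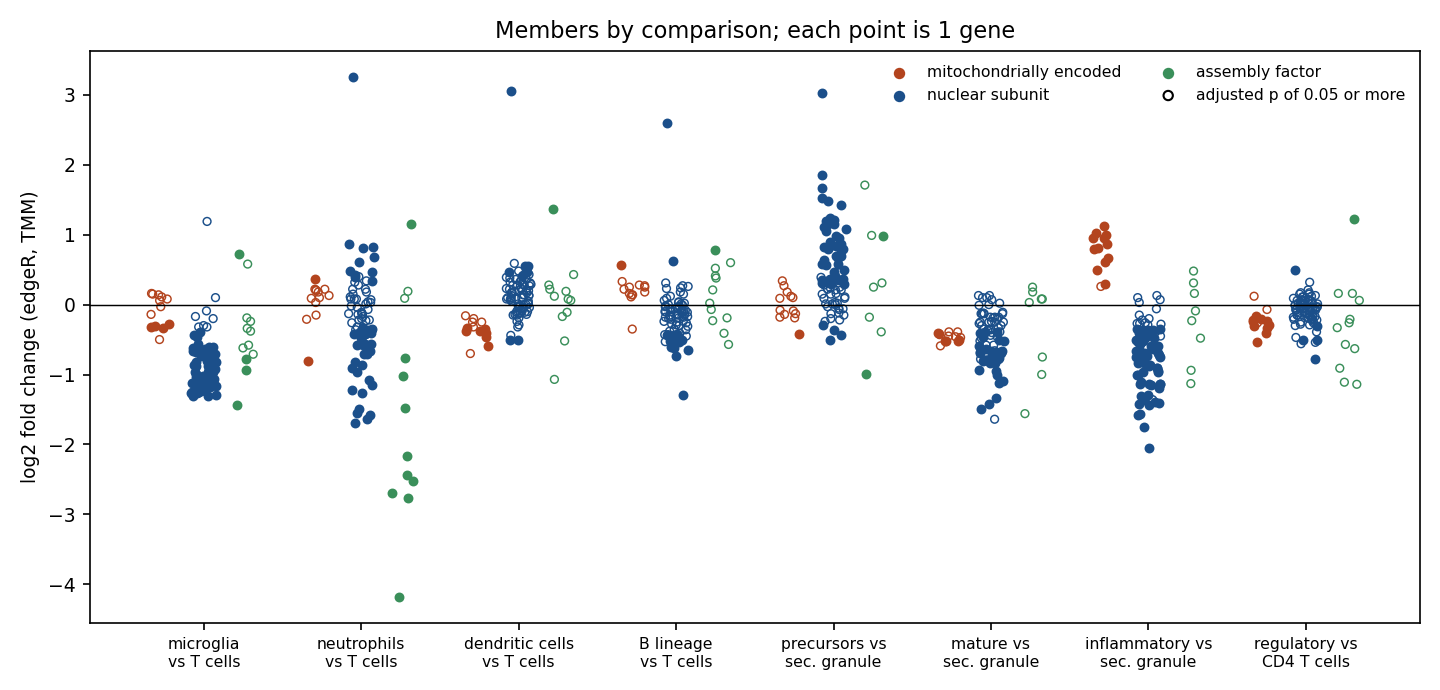
Log2 fold change of each member gene in 8 comparisons: 4 classes against T cells, 3 neutrophil stages against the secondary granule stage, and regulatory against CD4 T cells. Colour marks mitochondrial genes, nuclear subunits and assembly factors, and filled points passed an adjusted p of 0.05. Nuclear subunits lie below 0 in microglia, and in inflammatory neutrophils both genomes lie on opposite sides of 0.

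Neutrophils had nuclear subunits called in both directions against T cells, although their summed nuclear share was lower in every mouse. By edgeR 32 of 78 nuclear subunits were lower and 11 higher, where 31.4% of all genes were lower and 29.4% higher, so the shares of the subunits (median −0.227, all genes −0.00887) need the background beside them. Scaling matters here: with library size alone the median of all genes moved to −0.977, and 73 subunits were lower and 1 higher, with a gap between subunits and all genes of −0.218 in place of −0.226. The count of lower subunits was 17 without untreated mouse 1 and 21 without inhibitor mouse 2.

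Assembly factors were lower in neutrophils far beyond the median gene, with 9 of 12 lower, 1 higher and a median of −1.82. Ndufaf4, which acts in early assembly of complex I, had 0.898, 0.824, 0.907 and 0.623 CPM in neutrophils against 25.6, 29.8, 30.8 and 31.3 in T cells (−4.18 ± 0.25; edgeR adjusted p = 2.36e-13). Sdhaf1 had 2.96, 4.12, 4.28 and 3.30 CPM against 40.15 to 52.44 (−2.69 ± 0.31; edgeR adjusted p = 2.61e-08). Sdhaf4, which acts on the flavoprotein subunit of complex II, had 0.898, 5.03, 1.46 and 2.35 CPM against 21.9 to 27.1 (−2.44 ± 0.42; edgeR adjusted p = 1.94e-05). All neutrophil values of these genes lay below all T cell values, as they did for Ndufaf5 (−2.77) and Sdhaf3 (−2.53); Ndufaf7 was the gene that was higher, by 1.15.

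Among subunits, the largest falls were in Ndufs3 of complex I and in genes of the ATP synthase ring. Ndufs3, a core subunit of the arm that takes electrons from NADH, had 14.9, 11.9, 16.8 and 15.6 CPM in neutrophils against 99.3, 96.4, 92.9 and 89.3 in T cells (−1.70 ± 0.14; edgeR adjusted p = 4.74e-11). Atp5g2, a gene for the ring's c subunit, had 28, 39.2, 29.6 and 29.7 CPM against 182 to 201 (−1.64 ± 0.14; edgeR adjusted p = 1e-10). Atp5g1, which encodes the same ring subunit, fell by 1.58, and the accessory subunits Ndufa12 and Ndufa5 fell by 1.55 and 1.49. For all of these the neutrophils of every mouse lay below the T cells of every mouse.

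Ndufb7, an accessory subunit of the membrane arm, had 219, 255, 208 and 218 CPM in neutrophils and 239, 233, 247 and 253 in T cells, ranges that overlap. Its fold of 0.86 ± 0.19 (edgeR adjusted p = 0.000301) is a rise against the other genes of neutrophils, and it became −0.11 with library size alone. Sdhd, a membrane anchor of complex II, with 0.83, Atp5pb, of the ATP synthase stalk, with 0.81, and mt-Nd4, with 0.36, also turned negative with that scaling (−0.14, −0.16 and −0.61). Of the mitochondrial genes 1 of 13 was higher and 1 lower (6 and 1 by DESeq2). The lower gene was mt-Nd6, with 7.09, 10.6, 5.49 and 5.03 CPM against 22.2, 25.7, 20 and 25.1 in T cells (−0.81 ± 0.26; edgeR adjusted p = 0.0087), and it lay below T cells in every mouse.

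Of the 24 nuclear genes for mitochondrial transcription and RNA, 11 were lower in neutrophils and 2 higher, beside the 31.4% and 29.4% of all genes. Tfam, which packages mitochondrial DNA and starts its transcription, had 4.85, 3.13, 4.63 and 4.02 CPM against 40.7 to 50.7 in T cells (−2.47), and Lrpprc, which stabilises mitochondrial messengers, was at −2.73. The mitochondrial ribosome list had 55 of 78 lower and 5 higher, and the list for assembly of complexes III and V had 7 of 9 lower. Slc25a4, an ADP/ATP carrier, fell by 4.12, while both mitochondrial ribosomal RNAs were higher with TMM scaling (0.70 for mt-Rnr1, 0.41 for mt-Rnr2). Like that of mt-Nd4 above, these are rises against the other genes of neutrophils. Their sign with library size alone is not given here.

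Within the neutrophils, 4 stages were told apart by their markers: 561 cycling precursors, 1927 cells with secondary granule genes, 2840 mature cells and 1619 inflammatory cells led by genes such as Il1b and Cxcl2. Precursors took 2.14%, 2.37%, 2.26% and 2.27% of counts from the mitochondrial genes and 1.25%, 1.19%, 1.21% and 1.23% from nuclear subunits. Secondary granule cells took 1.61%, 2.55%, 1.42% and 1.54% and 0.777%, 0.758%, 0.79% and 0.768%. The nuclear share was thus lower than in precursors in every mouse.

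Mature cells took 1.43%, 1.91%, 0.982% and 1.04% from mitochondrial genes and 0.64%, 0.572%, 0.667% and 0.646% from nuclear subunits. Inflammatory cells took 3.33%, 3.8%, 2.27% and 3.3%, and 0.599%, 0.553%, 0.65% and 0.615%. Their ratio of mitochondrial to nuclear counts was 5.56, 6.87, 3.49 and 5.36, above that of any other stage in any mouse. Untreated mouse 2 had the highest mitochondrial share in all 4 stages.

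**Figure D3:**
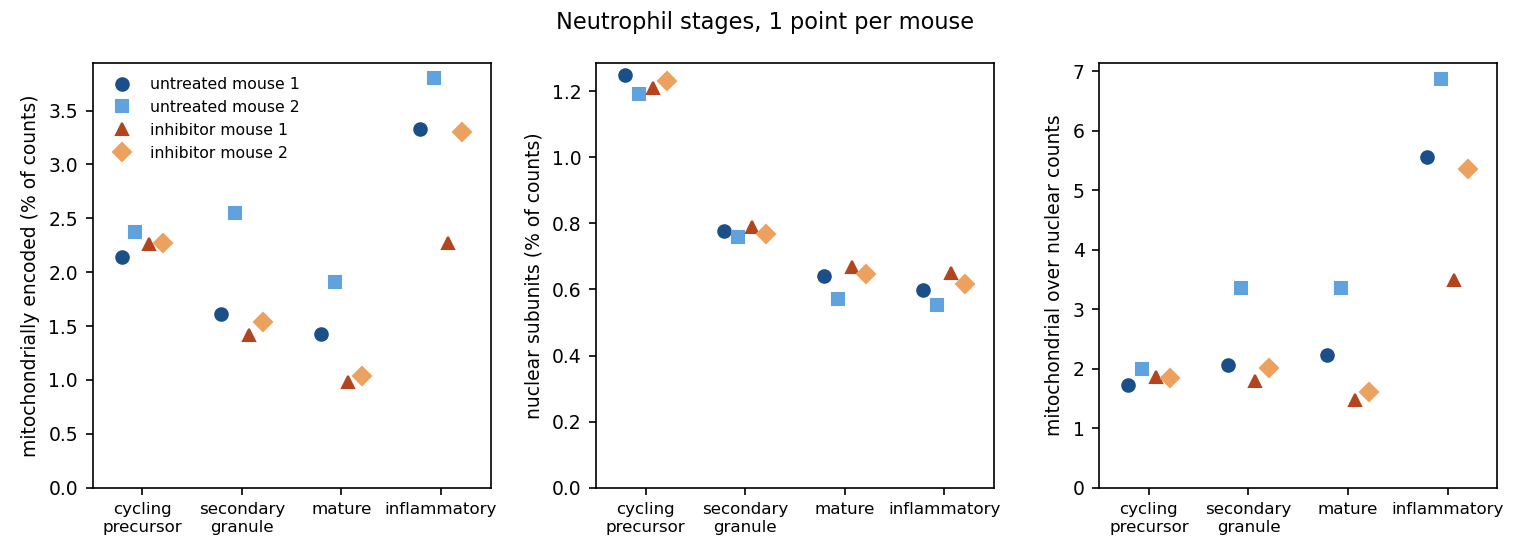
Percent of counts in mitochondrial genes, percent in nuclear subunit genes, and their ratio, by neutrophil stage from precursors to inflammatory cells, with 1 point per mouse. The nuclear share steps down from 1.19 to 1.25% in precursors to 0.553 to 0.65% in inflammatory cells. The mitochondrial share of summed counts is highest in inflammatory cells within each mouse, in inhibitor mouse 1 only slightly above precursors.

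Stages were tested over 11487 genes against the secondary granule stage, with the mouse as a block, and 105 members passed the filter. In precursors 43 of 78 nuclear subunits were higher and 4 lower, where 21.8% of all genes were higher and 23.7% lower (median 0.358, all genes −0.0667). The higher genes were 21 in complex I, 2 in complex II, 3 in complex III, 7 in complex IV and 10 in complex V. Ndufab1, the mitochondrial acyl carrier protein and a subunit of complex I, had 46.8, 53, 40.5 and 66 CPM in precursors against 9.57, 12.9, 10.5 and 10.9 (1.86 ± 0.21; edgeR adjusted p = 1.01e-06), with no overlap.

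Ndufa4, grouped here with complex I by its symbol and now known as a complex IV subunit, had 201, 209, 227 and 218 CPM in precursors against 56.4 to 70.9 in secondary granule cells (1.42). Ndufa5 was higher by 1.67, Atp5g2 by 1.53 and Ndufc2 by 1.48, while Cox7a2l, a factor joining complexes III and IV, fell by 0.51 and Ndufa13 by 0.43. Of the mitochondrial genes 1 of 13 was lower, mt-Nd2 (−0.42; edgeR adjusted p = 0.0467), and 0 were higher, whereas DESeq2 called 0 lower and 2 higher. With library size alone, which set the median of all genes at 0.287, 64 nuclear subunits and 5 mitochondrial genes were higher and 0 of either lower. The mitochondrial ribosome list moved with the nuclear subunits, with 44 of 77 genes higher and 2 lower.

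In mature cells both genomes were lower than in the secondary granule stage. Of 78 nuclear subunits 33 were lower and 0 higher, where 6.85% of all genes were lower and 7.09% higher (median −0.446, all genes −0.0236). The lower genes were 18 in complex I, 2 in complex III, 5 in complex IV and 8 in complex V. Ndufc2 fell by 1.49, Ndufa5 by 1.42, Ndufc1 by 1.34, Ndufb2 by 1.12 and Ndufa11 by 1.09, all accessory subunits of complex I. The count was 21 without inhibitor mouse 1.

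Of 13 mitochondrial genes 5 were lower in mature cells and 0 higher: mt-Co1 (−0.41), mt-Co2 (−0.52), mt-Co3, mt-Nd1 (−0.52) and mt-Atp6, with a median of −0.462 over all 13. This count moved with the setting: it was 8 without untreated mouse 2, 3 without inhibitor mouse 1, 1 without inhibitor mouse 2 and 0 with no mouse block.

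In inflammatory cells the genomes parted. Of 13 mitochondrial genes 12 were higher and 0 lower, where 13.4% of all genes were higher, and of 78 nuclear subunits 58 were lower and 0 higher, where 16.4% of all genes were lower. The medians were 0.806 and −0.675, beside −0.018 for all genes. Lower subunits were 29 of 37 in complex I, 1 of 4 in complex II, 5 of 8 in complex III, 8 of 12 in complex IV and 15 of 17 in complex V.

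The mt-Nd genes rose furthest. For mt-Nd2, a membrane subunit of complex I, the 4 mice had 1874, 2059, 1102 and 1782 CPM in inflammatory cells against 643, 1170, 447.9 and 579.7 in secondary granule cells (1.12 ± 0.17; edgeR adjusted p = 4.53e-05). The ranges overlap between mice, since inhibitor mouse 1 is lowest and untreated mouse 2 highest in both stages, but inflammatory cells were higher within every mouse. For mt-Nd5, a proton-pumping subunit, the values were 1588, 1794, 1048 and 1622 CPM against 599.9, 995, 518.9 and 558 (1.00; edgeR adjusted p = 0.000142), and here all 4 inflammatory values lay above all others.

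The gene for cytochrome b of complex III, mt-Cytb, had 4236, 4748, 2701 and 4041 CPM against 1854, 2922, 1465 and 1727 (0.81). The rise was smaller in complex IV: mt-Co1, its catalytic subunit, had 6403, 7813, 5072 and 6414 CPM against 4212, 6104, 4156 and 3961 (0.29 ± 0.10; edgeR adjusted p = 0.0367). By family the median fold was 0.962 for the 7 mt-Nd genes, 0.727 for the mt-Atp genes and 0.502 for the mt-Co genes. The member that was not called, mt-Nd6, is the gene on the other strand, with 0.26 ± 0.36 (edgeR adjusted p = 0.623).

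**Figure D4:**
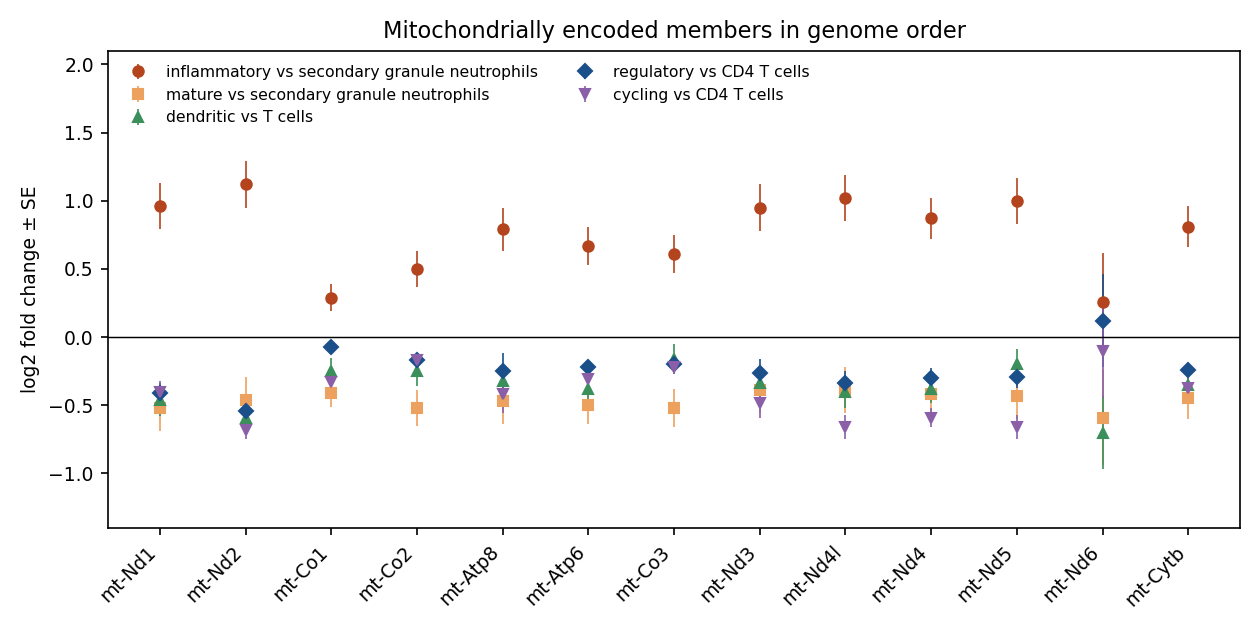
Log2 fold change with its standard error for the 13 mitochondrial genes in their order along the genome, in inflammatory and mature neutrophils against the secondary granule stage, dendritic cells against T cells, and regulatory and cycling T cells against CD4 T cells. In inflammatory neutrophils mt-Nd2 is highest at 1.12 and mt-Co1 and mt-Nd6 are lowest at 0.29 and 0.26.

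The share of mitochondrial counts was uneven between cells of this stage. The median inflammatory cell had 2.33%, 2.6%, 1.2% and 1.65% of its counts in the 13 genes. The median was 1.13%, 1.91%, 1.02% and 0.907% in secondary granule cells and 1.08%, 1.52%, 0.736% and 0.681% in mature cells. In precursors it was 1.7%, 2.08%, 2.01% and 1.93%. The precursor median was thus above the inflammatory one in both inhibitor mice and below it in both untreated mice. A limit of 20% on mitochondrial counts had removed 4.65% of the inflammatory cells, but 0.0992% of secondary granule and 0.0342% of mature cells. Of the inflammatory cells kept, 9.51% were over 10%. With these left out as well, 5 of the 13 genes were higher, and mt-Co1 (−0.05) and mt-Nd6 (−0.29) turned negative, while 55 nuclear subunits were still lower. Inflammatory cells also had fewer counts a cell, with a median of 6564 against 7788 in mature and 12421 in secondary granule cells, and 9.78% of them had been called doublets. The part of damaged cells and depth in the mitochondrial rise was not tested beyond these values.

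The nuclear falls in inflammatory cells were largest among accessory subunits of complex I. Ndufc1 had 8.11, 6.44, 4.31 and 2.07 CPM against 13.5, 16.5, 18.4 and 19.8 (−2.05 ± 0.33; edgeR adjusted p = 9.7e-05). Ndufa11 had 33.1, 25.8, 29.7 and 18.3 CPM against 63.4, 77.4, 75.4 and 53.2 (−1.57 ± 0.20; edgeR adjusted p = 9.48e-06). In complex III, Uqcrb, a subunit at its ubiquinone site, had 44.9, 14.5, 32.2 and 41.4 CPM against 81.3, 103, 77.7 and 78.7 (−1.58 ± 0.21; edgeR adjusted p = 1.54e-05). The inflammatory cells of every mouse lay below the secondary granule cells of every mouse for these genes.

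Ndufa5 was less sharply separated, with 6.24, 2.68, 4.64 and 0.689 CPM against 10.8, 10.5, 12.2 and 6.09 (−1.75 ± 0.43; edgeR adjusted p = 0.00448), where untreated mouse 1 lay above inhibitor mouse 2 of the other stage. Ndufc2 fell by 1.44. With library size alone, which set the median of all genes at 0.183, 41 nuclear subunits were lower and 1 higher. Cycs, the cytochrome c that links complexes III and IV, fell by 1.44, and Cyc1, the cytochrome c1 of complex III, by 1.01. Of 77 mitochondrial ribosome genes 20 were lower and 2 higher, while mt-Rnr1 and mt-Rnr2 rose by 0.68 and 0.71. The mature, inflammatory and precursor comparisons share the secondary granule cells as their reference.

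Dendritic cells differed from T cells mainly on the mitochondrial side. Of 13 genes 7 were lower and 0 higher, where 12% of all genes were lower and 15.2% higher (median −0.349, all genes −0.0504). For mt-Nd2 the values were 860.5, 1059, 665.2 and 842.6 CPM in dendritic cells against 1380, 1421, 1344 and 1277 in T cells, with no overlap (−0.59 ± 0.13; edgeR adjusted p = 0.000994). The other lower genes were mt-Nd1 (−0.46), mt-Nd4l (−0.40), mt-Nd4 (−0.38), mt-Atp6 (−0.38), mt-Cytb (−0.35) and mt-Nd3 (−0.34). With library size alone 12 were lower, and without untreated mouse 1 or without inhibitor mouse 2 the count was 1.

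Of the 78 nuclear subunits 7 were higher and 2 lower in dendritic cells, under the 15.2% of all genes higher and 12% lower. Uqcrfs1, the Rieske iron-sulphur protein of complex III, and Uqcrb rose by 0.55 each, Ndufv2, of the NADH-binding part of complex I, by 0.47, and Ndufb4 by 0.46. Uqcrh and Ndufv3 fell by 0.51 each. Cox6b2, an isoform of a complex IV subunit known from testis, had 14.21, 3.861, 11.02 and 8.154 CPM in dendritic cells and 0.1243 to 1.764 in T cells (3.06 ± 0.69; edgeR adjusted p = 0.00164).

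In B lineage cells 1 mitochondrial gene was higher and 0 lower by edgeR, and 5 and 0 by DESeq2. The gene called by edgeR was mt-Nd5, with 1979, 2113, 1992 and 2108 CPM against 1311, 1361, 1304 and 1248 in T cells, with a narrow spread in both (0.57 ± 0.11; edgeR adjusted p = 0.000269). Of the nuclear subunits 14 were lower and 2 higher, where 15.3% of all genes were lower and 12.8% higher. Ndufv3, an accessory subunit beside the NADH site of complex I, had 83.95, 113, 113 and 126.4 CPM against 239.3 to 266 (−1.29 ± 0.16; edgeR adjusted p = 7.3e-07). The lower count was 3 without untreated mouse 1, 8 without untreated mouse 2 and 3 without inhibitor mouse 2. Ndufs8, a core iron-sulphur subunit, was higher by 0.63.

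In NK cells edgeR called 1 nuclear subunit higher than in T cells, Ndufa4, and 0 lower, where 3.91% of all genes were higher and 4.36% lower; DESeq2 called 2 higher and 1 lower. Ndufa4 had 269.2, 230.3, 371.6 and 307.8 CPM in NK cells against 227.9, 180.1, 205.3 and 183.4 in T cells, with no overlap (0.61 ± 0.16; edgeR adjusted p = 0.0178). In plasmacytoid dendritic cells 0 mitochondrial genes were called by edgeR, with 1 at an unadjusted p under 0.05, and DESeq2 called 1 higher. Of their nuclear subunits 17 were lower and 2 higher, where 20.1% of all genes were lower and 17.9% higher. The lower ones included Ndufb7 (−0.78) and Atp5g3 (−0.75), and the count was 8 without untreated mouse 1 and 5 without inhibitor mouse 2.

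With a minimum of 20 cells a mouse in place of 30, chosen after seeing the data, monocytes or macrophages and erythroid cells could be fitted. In monocytes and macrophages 3 mitochondrial genes were lower than in T cells, mt-Nd2 by −0.50, mt-Nd1 by −0.33 and mt-Cytb by −0.32. These sums leave out the unnamed part of their cluster with high mitochondrial counts, described above. Of their nuclear subunits 13 were higher and 3 lower, where 13.8% of all genes were higher and 17.1% lower. Sdhd had 100, 139.7, 114.9 and 111 CPM against 50.81 to 62.02 in T cells (1.00 ± 0.22; edgeR adjusted p = 0.00058), with no overlap. Of the cells in the monocyte or macrophage cluster 40.4% had been called doublets and removed, 5.56% in inhibitor mouse 1 and 39.4 to 55.4% in the others. In erythroid cells 19 nuclear subunits were higher and 3 lower, where 14.2% and 15.6% of all genes were. Ndufv3 was lower in both classes, by −0.97 and −0.99.

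Isoforms of complex IV subunits were spread unevenly over the classes. Cox4i1, the common form of subunit 4 and the complex IV member with the most counts, had 790, 762, 754 and 764 CPM in T cells, 539, 622, 382 and 525 in microglia and 369 to 401 in neutrophils. Cox6b2 was highest in erythroid cells, at 51.4 to 120 CPM, followed by myeloid progenitors at 25.8 to 52.2, monocytes or macrophages at 7.55 to 51.6 and neutrophil precursors at 13 to 24. The first and the last of these ranges do not overlap, and that of monocytes or macrophages overlaps both of its neighbours. The lowest erythroid value, 51.4, lies just under the highest in myeloid progenitors, 52.2, and in monocytes or macrophages, 51.6.

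AA467197, a paralogue of Ndufa4 (the symbol is also known as Nmes1) that is not a member, was higher in neutrophils than in T cells. It had 264, 414, 377 and 296 CPM in neutrophils and 120, 120, 91.5 and 218 in T cells (2.30 ± 0.41; edgeR adjusted p = 2.95e-05), while Ndufa4 had 79.7 to 94.9 in neutrophils and 180 to 228 in T cells and was not called (−0.26 ± 0.16; edgeR adjusted p = 0.162). Over the stages AA467197 was highest in secondary granule cells, with 491, 696, 658 and 517 CPM, against 150 to 208 in mature and 90.4 to 165 in inflammatory cells. Its level in microglia was 8.92 to 57.5 CPM, below T cells in every mouse (−2.08).

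Among T cells the comparison was with CD4 T cells over 11624 genes. Regulatory T cells had 9 of 13 mitochondrial genes lower and 0 higher, where 3.93% of all genes were lower and 3.05% higher. For mt-Nd2 the values were 1185, 1205, 1064 and 872.8 CPM against 1535, 1525, 1476 and 1419 in CD4 T cells, with no overlap (−0.54 ± 0.06; edgeR adjusted p = 6.23e-06). The falls were −0.41 ± 0.07 for mt-Nd1, −0.34 for mt-Nd4l and −0.17 for mt-Co2. The count was 5 without untreated mouse 1, 4 without untreated mouse 2 and 3 without inhibitor mouse 2, and 4 with library size alone.

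The nuclear side of regulatory T cells moved little, with 4 subunits lower and 1 higher. Ndufab1 fell by 0.78 and Cox7a2l by 0.50, and Ndufa4 rose by 0.49. The assembly factor Sdhaf1 had 87.6, 99.2, 78.8 and 136 CPM in regulatory T cells against 46.7, 33.4, 37.3 and 45.1 (1.23 ± 0.28; edgeR adjusted p = 0.00631), above CD4 T cells in every mouse.

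Cycling T cells, which could be fitted with the minimum of 20 cells, showed both genomes moving apart in the direction opposite to inflammatory neutrophils. Of 13 mitochondrial genes 12 were lower and 0 higher, where 8.38% of all genes were lower, and 26 nuclear subunits were higher and 2 lower, where 9.87% were higher. Ndufc2 had 175.7, 184.1, 148.7 and 169.7 CPM against 76.99 to 91.87 in CD4 T cells (1.01 ± 0.18; edgeR adjusted p = 0.000187), and Atp5o, of the ATP synthase stalk, 402.1 to 473.7 against 214.3 to 238.2 (0.95 ± 0.14; edgeR adjusted p = 1.54e-05). For mt-Nd2 the values were 891.7, 1052, 959.2 and 831.1 CPM against 1419 to 1535 (−0.68 ± 0.07; edgeR adjusted p = 7.22e-08). Cycling cells of every mouse lay outside the range of CD4 T cells for each of these genes. The cycling cluster was mixed, with Foxp3 found in 21.3% of its cells and Cd8a in 17.33%. In CD4 T cells these were 1.522% and 1.439%. Cycling cells also had more counts a cell, with a median of 18561 against 6652 in CD4 T cells. The part of this mix and of depth in the differences was not tested.

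In CD8 T cells 1 member was lower, mt-Cytb (−0.22), where 1.32% of all genes were and 1.58% were higher. Cd8a was found in 52.46% of the cells of this cluster and Cd4 in 25.96%. In gamma-delta T cells mt-Co3 and mt-Cytb were lower by −0.20 each in edgeR (0 by DESeq2), where 1.39% of all genes were and 1.92% were higher. In CD4 T cells led by cytokine genes 2 nuclear subunits were higher, Uqcr10 (0.53) and Cox5a (0.40), and Cox7a2l was lower (−0.35), where 2.14% of all genes were higher and 2.12% lower. These subsets share the CD4 T cells as their reference.

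Between inhibitor and untreated mice, 2 against 2, edgeR called 0 members in every class and stage fitted, where it called at most 1 gene of all (0.00878% higher in NK cells, 0.0095% lower in neutrophil precursors). With the minimum of 20 cells it called 3 genes lower in cycling T cells (0.0286%), 1 lower in monocytes or macrophages (0.0135%) and 1 higher in erythroid cells (0.0128%), none of them a member. DESeq2 called members in mature neutrophils alone, where 10 of 13 mitochondrial genes were lower and 0.186% of all genes were called lower by that tool. In edgeR, 12 of the 13 had an unadjusted p under 0.05 there and the median fold was −0.954; the smallest adjusted p was 0.435. In 12 of 13 both inhibitor mice lay below both untreated mice, where 14.2% of all genes did so.

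For mt-Nd1 the 4 mice had 1089, 1500, 545.7 and 696 CPM in mature neutrophils (−1.12 ± 0.19; edgeR adjusted p = 0.435). For mt-Nd2 they had 583.6, 901.8, 294.7 and 387.5 (−1.18 ± 0.23; edgeR adjusted p = 0.497), and for mt-Nd3 147.4, 185.8, 76.35 and 86.43 (−1.09 ± 0.18; edgeR adjusted p = 0.435). Untreated mouse 2 was highest and inhibitor mouse 1 lowest for each. The groups were closer in mt-Co1, with 3697, 4479, 3179 and 2919 CPM (−0.48; edgeR adjusted p = 0.786), and they overlapped in mt-Nd6, with 2.94, 6.22, 5.09 and 3.57 CPM. With 1 mouse left out, an arm of 1 mouse has no spread of its own, so counts of called genes from such fits are not given here. The share of mature neutrophils called doublets before the sums was 2.67%, 10.4%, 2.02% and 1.54%, highest in untreated mouse 2. In the cells kept, the microglia marker list (12 genes, none at 0) summed to 209.3, 240.6, 168.5 and 161.9 CPM, higher in both untreated mice, and the T cell list to 143.4, 110.4, 126.8 and 130.4. Their part in the mitochondrial difference was not tested.

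**Figure D5:**
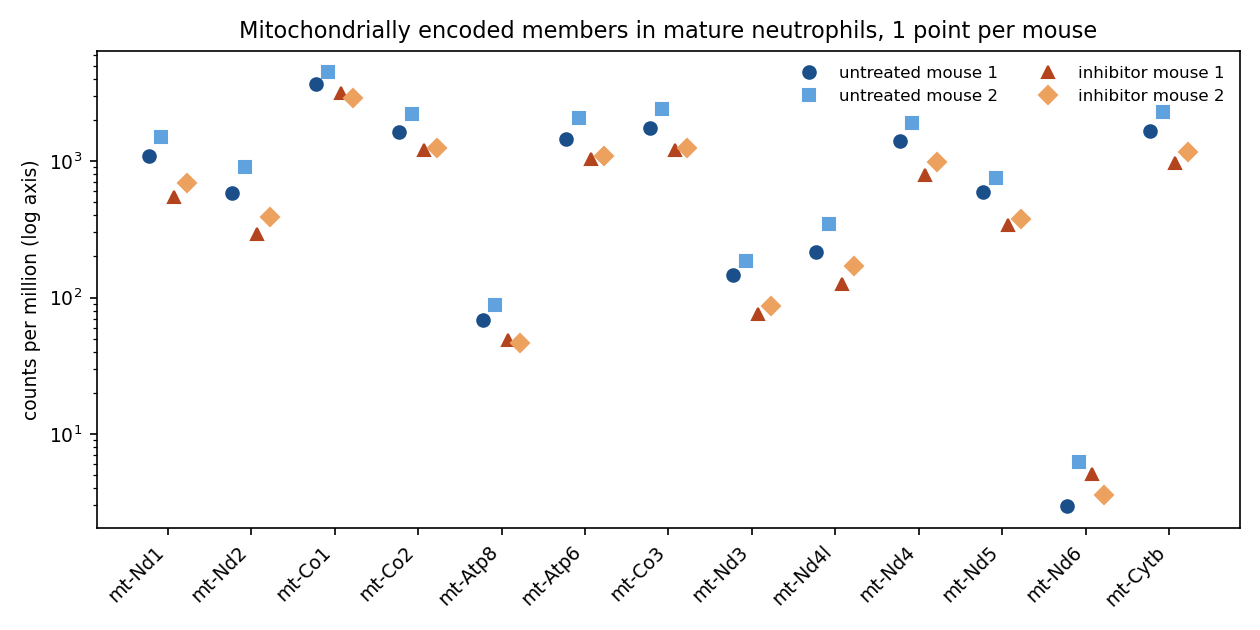
CPM of the 13 mitochondrial genes in mature neutrophils on a log axis, in their order along the genome, with 1 point per mouse and colour for untreated and inhibitor mice. Both inhibitor mice lie below both untreated mice for 12 genes, and the groups overlap for mt-Nd6.

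The other neutrophil stages gave smaller median differences. A single gene, mt-Nd6, had a larger fold in inflammatory cells than those given for mature cells. Its values there were 13.72, 17.72, 4.806 and 5.169 CPM (−1.72 ± 0.51; edgeR adjusted p = 0.962). In secondary granule cells the mitochondrial median was −0.637, with 10 genes at an unadjusted p under 0.05 and 11 of 13 below (13.1% of all genes), and in inflammatory cells it was −0.41, with 4 and 8 of 13 (13.6%). In precursors it was −0.027, with 1 gene at an unadjusted p under 0.05 and 4 of 13 below (15.1%). Over all neutrophils all 13 lay below (15.6%), 11 with an unadjusted p under 0.05. The nuclear subunits had a median of −0.0162 in neutrophils and 0.0427 in mature cells.

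Mitochondrial medians were also negative in T cells and microglia, with 0 genes called by edgeR or DESeq2. Not every class went this way. In B lineage cells both inhibitor mice lay below both untreated mice for 1 of 13 (17.6% of all genes) and above for 4 (22.5%). They lay below for 1 of 13 in plasmacytoid dendritic cells (17%) and 2 in dendritic cells (15.7%). NK cells went the same way as T cells and microglia, with 7 of 13 below (19%) and 0 above (17.7%). In T cells the median between the groups was −0.077, with 10 of 13 below (16.7%) and 0 at an unadjusted p under 0.05, and in CD4 T cells it was −0.0518, with 11 of 13 below (17.6%). In microglia it was −0.281, with 12 of 13 below (20.3%), and over all cells −0.193, with 13 of 13 below (41.1%). The sums over all cells also carry the mix of classes, which differed between the groups. Neutrophils, low in mitochondrial share, were 1000 of 4328, 798 of 4578, 3358 of 5429 and 1791 of 4917 cells. The part of this mix in the all-cells values was not tested. The difference between the treatment effects of neutrophils and T cells was tested itself: edgeR and DESeq2 called 0 members, with 1 of the mitochondrial genes at an unadjusted p under 0.05 in edgeR, mt-Nd2, at −0.52 ± 0.22 (edgeR adjusted p = 1.0). The median of the 13 differences was −0.332.

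In microglia the nuclear subunits had a median of −0.406 between inhibitor and untreated mice, beside 0.0202 over all genes. By edgeR 0 were called, with 22 at an unadjusted p under 0.05, and 49 of 78 had both inhibitor mice below (20.3% of all genes). Cox6c, a small subunit of complex IV, had 221.4, 262, 113.1 and 156.9 CPM (−0.89 ± 0.25; edgeR adjusted p = 0.28), and Cox5a differed by −0.88. The T cell marker sums in these microglia, given above, were also higher in both untreated mice, as were the shares of microglia called doublets before the sums, 16.4%, 24.7%, 2.25% and 7.87%. Their part in this difference was not tested.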

How the data were processed

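Single-cell RNA of CD45+ spinal cord cells was analysed from 4 mice with EAE, 2 untreated and 2 given an inhibitor; the hashtag sample is in no group and not analysed here. Whole-number counts were deposited by the authors for 28482 genes and 25461 columns, with no normalization. Per the submitters' processing notes the build was GRCm38; aligner, counter and use of strand are not given there, nor whether counts stand for molecules or reads. A cell's mouse came from the hashtag in its column name, and 0 columns were left unmapped. Replicates are separate mice per the labels.

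Columns with more than 1 hashtag (3943) entered no comparison. Cells were clustered on 2000 variable genes, without members or other genes of the mitochondrial genome. Settings were 40 components, 20 neighbours and Leiden resolution 1.0 (leidenalg 0.10.2, igraph 0.11.9, python 3.11.15, numpy 2.4.6, scipy 1.17.1, pandas 2.3.3). A cluster with over 30% of its cells above 20% mitochondrial counts was clustered again on its own. Cells over 20% mitochondrial counts (1014) and 1252 called doublets, the cells with the most multi-hashtag columns among their 50 nearest neighbours, were removed after clustering. Clusters were named by their resemblance to marker lists, some with rules set after seeing the clusters.

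Counts were summed per mouse and class (at least 30 cells in each mouse), filtered with edgeR's filterByExpr, scaled by TMM and tested across all genes with the quasi-likelihood test of edgeR 4.0.16 (R 4.3.3), with Benjamini-Hochberg adjustment and a threshold of 0.05. Contrasts of classes, stages and subsets had the mouse as a block, and treatment contrasts had none. The script was tested on simulated data with known changes. Promoter windows were RefSeq's (GRCm38.p6), and 106 of 111 members had coordinates in GENCODE M21. Alternatives were DESeq2 1.42.0, library size alone, no filter, other mitochondrial limits, doublets kept, members in the clustering, cells thinned to 2000 counts, nuclear genes alone in the library size, no mouse block, each mouse left out, the replicate number as a block and, added after seeing the data, at least 20 cells a mouse. Figures were drawn with matplotlib 3.10.9.

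The members and lists were chosen with earlier results of these data known. Genes were named by rule: all mitochondrial members; per comparison the 5 nuclear members with the largest rise and the 5 with the largest fall among those called; per treatment fit the 5 with the smallest p; the complex IV and Ndufa4 isoforms; per complex the nuclear member with the most counts; and per list the 2 genes with the smallest p. Named beyond the rule, after their values were seen, were the genes with printed promoter stretches and a few further called subunits.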

Additional observations from a re-analysis of the deposited data

How the results depend on the processing

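Over all alternatives run, counts of called members and summed shares stayed close to the reported value in 315 comparisons (counts within 1.5 times, shares within 1 SD); counts were larger in 21 and smaller in 22, and shares moved in 6. With library size alone, neutrophils against T cells had 1 nuclear subunit higher and 73 lower, Ndufb7 turned to −0.11, Atp5pb to −0.16, Sdhd to −0.14 and mt-Nd4 to −0.61; dendritic cells had 12 mitochondrial genes lower, B lineage cells 9 nuclear subunits lower and regulatory T cells 4 mitochondrial genes lower. With cells thinned to 2000 counts, the B lineage count was 25, the mature neutrophil mitochondrial count 11 and the regulatory T cell count 3. With members in the clustering, the last pair became 12 and 4. Mature cells had 12 with no filter and 0 with no mouse block. At 10% mitochondrial counts, inflammatory neutrophils had 5 mitochondrial genes higher, with mt-Co1 at −0.05 and mt-Nd6 at −0.29. By DESeq2, 12 nuclear subunits were higher in dendritic cells, 8 in cytokine-led CD4 T cells and 2 in NK cells, and 2 were lower in neutrophil precursors.

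Leaving out 1 mouse gave 17 to 30 lower nuclear subunits in neutrophils, 3 to 12 in B lineage cells, 5 to 17 in plasmacytoid dendritic cells and 21 to 34 in mature neutrophils, and 1 to 7 lower mitochondrial genes in dendritic cells, 1 to 8 in mature neutrophils and 3 to 8 in regulatory T cells. Between inhibitor and untreated mice it gave 4 to 12 lower mitochondrial genes in mature cells, 0 to 13 in all neutrophils, 0 to 12 in secondary granule cells and 0 to 9 in inflammatory cells, and mt-Nd6 in mature cells ranged from −0.6 to 0.57 (0.12 without inhibitor mouse 2). With no filter these counts were 11 in mature cells, 3 in all neutrophils and 10 in secondary granule cells, with 2 nuclear subunits in microglia; DESeq2 gave 10 in mature cells.

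With the replicate number as a block, the count in mature cells was 5. The numbers do not pair the mice by any label, and deviations of same-numbered mice correlated between −0.0252 and 0.0411 over genes.

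The shares that moved were the T cell mitochondrial share to 3.28% at the 10% limit and 3.61% when thinned, T cell nuclear share to 1.64% and neutrophil nuclear share to 0.718% when thinned, and inflammatory mitochondrial share to 4.06% with no limit and 2.22% at the 10% limit. The cause of these changes was not tested.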
